A study of Mus musculus with 27 samples.

Results

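The balance of each gene's RNA between chromatin and nucleoplasm was compared between mouse cortical neurons and neural progenitor cells. The quantity was the log2 ratio of a gene's level in chromatin to its level in nucleoplasm, and the comparison was the ratio in the neurons (mCtx) minus the ratio in the progenitors (mNPC). A gene entered when it lay outside the mitochondrial genome and reached a mean of 1 CPM or more (CPM, counts scaled to a common library size) in at least 1 of the 2 fractions of each cell type. This rule uses levels and kept 12986 of the 37332 genes in the count table, 11953 of them annotated as protein-coding. A gene scarce in a cell type can enter through 1 fraction alone, which favours an extreme ratio in that cell type. In both fractions of each cell type, 11734 members reached a mean of 1 CPM, and the gene lists were not recounted on these. All 12986 passed the low-count filter and were tested.

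The study separated mouse cells into chromatin-bound RNA, soluble nucleoplasm and cytoplasm and sequenced RNA longer than 200 nt from each fraction after removal of ribosomal RNA, as stranded paired reads of 100 bp without selection for poly(A). mNPC are a neural progenitor line established in the submitters' laboratory, so they stand for 1 line, and were kept in DMEM/F12 with B27 and daily EGF and FGF at 10 ng/ml. mCtx are primary cortical neurons grown for 5 days on poly-L-lysine. Each of the 4 groups compared here had 3 libraries, and embryonic stem cells (mESC, the E14 line grown on gelatin with LIF) were part of the fit that estimated the spread but not of the comparison. Neither cell type carries a stated mutation or drug treatment. The labels do not say that libraries of a group came from separate cultures, so p-values measure the spread between these libraries. Counts of the 12 libraries ran from 12194455 to 17695437.

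Chromatin preparations hold RNA that is still being made or is tethered to DNA, much of it unspliced, and the soluble nucleoplasm holds released RNA that has not reached the cytoplasm. The outer nuclear membrane is continuous with the endoplasmic reticulum (ER), where messenger RNAs of secreted and membrane proteins are translated, and material of either can stay with isolated nuclei. A second class of nuclear RNA comprises transcripts that keep an intron and stay in the nucleus, many of them encoding splicing factors. The deposited counts cover whole gene spans with introns, so a value sums the unspliced and the spliced RNA of a gene.

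Proteins that enter the ER usually begin with a hydrophobic stretch near the N-terminus, the signal sequence or signal anchor. The first 30 codons of 8 genes described below are shown here because much of the comparison below is divided by the presence or absence of that stretch. They were read from GENCODE vM21 transcripts on GRCm38. Capitals mark the 10 codons with the highest mean hydropathy where that mean was 2.2 or more within the first 35 residues, and a sequence without such a stretch has no capitals. The secreted insulin-like growth factor binding proteins Igfbp4 (chr11:99041244-99054392, plus strand) and Igfbp2 (chr1:72824503-72852474, plus strand), the secreted matrix protein Sparc (chr11:55394500-55420080, minus strand) and the ER chaperones Calr (chr8:84841850-84846934, minus strand) and Hspa5 (chr2:34771970-34776531, plus strand) carry the stretch. The hydrolase Fhit (chr14:9550092-11162035, minus strand), beta-actin Actb (chr5:142903115-142906754, minus strand) and neuronal beta-tubulin Tubb3 (chr8:123411424-123422015, plus strand), which are made in the cytosol, do not.
Igfbp4: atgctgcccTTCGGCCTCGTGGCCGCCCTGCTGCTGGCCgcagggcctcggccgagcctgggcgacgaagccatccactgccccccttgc
Igfbp2: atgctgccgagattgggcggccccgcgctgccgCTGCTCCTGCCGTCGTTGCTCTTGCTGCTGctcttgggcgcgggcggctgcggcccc
Sparc: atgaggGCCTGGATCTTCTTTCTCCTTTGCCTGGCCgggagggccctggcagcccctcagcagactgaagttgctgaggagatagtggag
Calr: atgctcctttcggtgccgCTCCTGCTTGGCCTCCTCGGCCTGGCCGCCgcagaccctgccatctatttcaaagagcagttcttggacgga
Hspa5: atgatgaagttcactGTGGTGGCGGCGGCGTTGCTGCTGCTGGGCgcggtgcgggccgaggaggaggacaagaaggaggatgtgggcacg
Fhit: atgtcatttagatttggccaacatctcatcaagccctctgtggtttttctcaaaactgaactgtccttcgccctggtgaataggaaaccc
Actb: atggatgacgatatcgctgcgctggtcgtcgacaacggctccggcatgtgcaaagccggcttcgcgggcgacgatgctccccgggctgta
Tubb3: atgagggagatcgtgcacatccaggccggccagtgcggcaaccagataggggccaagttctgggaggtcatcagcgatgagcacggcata
The capitals are rich in codons with T as the second base, which encode the hydrophobic residues phenylalanine, leucine, isoleucine, methionine and valine. The marked stretch of Igfbp2 holds 8 such codons of 10, and those of Igfbp4, Sparc, Calr and Hspa5 hold 6 each. The count alone does not set the class, since the best window of Fhit also holds 6 but has a mean hydropathy of 1.38.

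The chromatin-to-nucleoplasm ratio differed between the 2 cell types for 6148 of the 12986 genes. It was higher in mCtx for 2603 genes (20%) and lower for 3545 (27.3%) by edgeR's quasi-likelihood test at a Benjamini-Hochberg adjusted p of 0.05. Over all 18252 genes fitted, 15.2% were higher and 20.3% lower. Of the 11734 members at 1 CPM or more in both fractions of each cell type, 2489 (21.2%) were higher and 3303 (28.1%) lower. Among the calls, 1633 higher and 1766 lower genes differed by a log2 value of 1 or more. Of the 12986 members, the 3 ratios of same-numbered mCtx libraries lay wholly above those of mNPC for 3757, wholly below for 5138, and overlapped for 4091. Among the 6148 calls, 6094 did not overlap, a description from the same libraries as the test and no separate support for the calls.

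The split between higher and lower depends on scaling. With total counts in place of trimmed-mean factors, 1114 genes were higher and 7166 lower, and the median difference of all members moved from -0.15 to -0.79. Limma on log2(TPM + 1) gave 916 higher and 2787 lower, with a pseudocount of 0.1 it gave 814 and 3176, without a filter on low TPM 1385 and 3229, and after rescaling TPM by the median ratio 2973 and 1919. Group medians below are therefore also given relative to the median of all members. Counts of calls in lists near that median can change sides with the scaling, and alternative counts are given for most such lists.

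The ratio spanned a narrower range in the neurons. In mCtx the interquartile range of the log2 ratio over the 12986 genes was 1.54, against 2.16 in mNPC and 1.72 in mESC. The 10th and 90th percentiles were -1.69 and 1.25 in mCtx and -2.19 and 1.96 in mNPC. Within mCtx, 35.6% of the members were called higher in chromatin and 35% higher in nucleoplasm. Within mNPC the shares were 40.4% and 39.4%. Across genes, which are not independent replicates, the ratios of mCtx and mNPC correlated with r = 0.793 and rho = 0.792.

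Most genes lay on the same side in both cell types. There were 3629 genes (27.9%) called toward chromatin in both and 3631 (28.0%) called toward nucleoplasm in both. Of the former, 1643 had a lower ratio in mCtx and 89 a higher one. Of the latter, 1032 had a higher ratio in mCtx and 376 a lower one. A change of side was rare, with 214 genes (1.65%) toward chromatin in mNPC and toward nucleoplasm in mCtx, and 337 (2.6%) the other way.

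**Figure D1:**
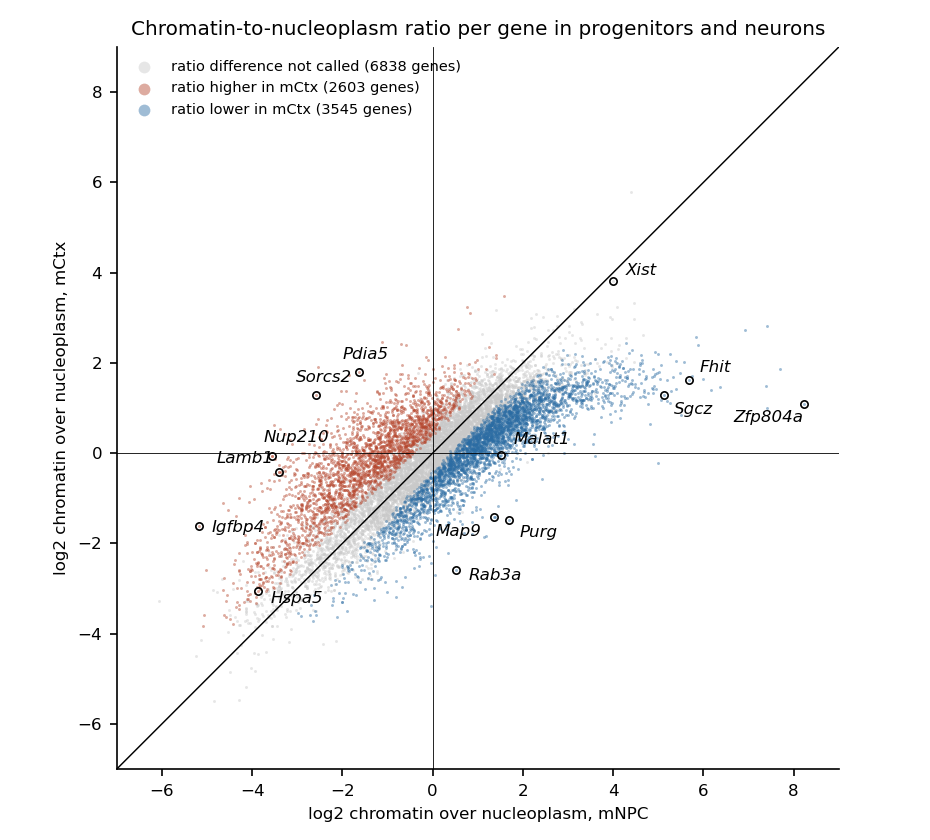
Log2 chromatin-to-nucleoplasm ratio of each of the 12986 genes in mNPC (x axis) and mCtx (y axis), coloured by the call of the ratio difference; the diagonal marks equal ratios, and the point of Zfp804a is a fitted value with mNPC nucleoplasm at 0 counts. The cloud is wider along the mNPC axis, with an interquartile range of 2.16 against 1.54 along the mCtx axis.

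The mitochondrial share of counts and the markers of other cell types also differed between these groups. Mitochondrial transcripts made up 0.11% ± 0.0108 (SD, n = 3) of counts in mCtx chromatin and 2.12% ± 0.156 in mCtx nucleoplasm, against 0.201% ± 0.053 in mNPC chromatin and 11.1% ± 4.14 in mNPC nucleoplasm. The mNPC nucleoplasm libraries, at 7.81 to 15.7%, lay above those of mCtx, at 2.01 to 2.30%, without overlap. The summed level of 12 neuron markers was 7990 to 9450 CPM in mCtx chromatin and 9400 to 9690 CPM in mCtx nucleoplasm, against 1970 to 2310 and 640 to 795 CPM in mNPC, most of the mNPC sum being Map2. The 10 progenitor markers summed to 313 to 350 and 872 to 928 CPM in mCtx and to 2480 to 2920 and 7410 to 8460 CPM in mNPC, and each reached 1 CPM in every group. The mNPC line also held RNA of genes listed as oligodendrocyte-lineage and astrocyte markers, and whether glial cells were present was not tested. Its 7 oligodendrocyte-lineage markers, Cspg4, Pdgfra, Olig1 and Olig2 leading, summed to 535 to 615 CPM in chromatin and 2870 to 3490 CPM in nucleoplasm, and 7 of 7 reached 1 CPM, against 35.8 to 41.0 and 65.6 to 74.1 CPM in mCtx. The 7 astrocyte markers summed to 862 to 1010 and 3920 to 5020 CPM in mNPC, chiefly Slc1a3. Their sums in mCtx were 511 to 550 and 667 to 735 CPM. Slc1a2 went the other way, at means of 318 and 375 CPM in mCtx chromatin and nucleoplasm against 77.5 and 192 CPM in mNPC. The other astrocyte markers were higher in mNPC, with Gjb6 at 0 in both mCtx fractions. The 7 interneuron markers were higher in mCtx, summing to 74.4 to 85.0 and 101 to 122 CPM against 6.62 to 8.21 and 2.32 to 3.94 CPM in mNPC. Summed pluripotency markers were at 0.0 CPM in mCtx and at most 1.18 CPM in mNPC. In bulk samples fewer cells of a type and less RNA per cell cannot be told apart.

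Genes whose protein begins with a hydrophobic stretch moved toward chromatin in the neurons relative to the progenitors more often than they moved the other way. Of the 1752 such members, 952 (54.3%) had a higher ratio in mCtx and 145 (8.28%) a lower one. Their median log2 ratio was -1.26 in mNPC and -0.18 in mCtx, so the RNA lay toward nucleoplasm in the progenitors and much less so in the neurons. The median difference was 0.88, or 1.02 relative to all members. The class medians of the 3 mNPC replicates were -1.23, -1.34 and -1.17 and those of the 3 mCtx replicates -0.22, -0.12 and -0.20, with no overlap. In mESC the median was -0.42.

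Genes with a hydrophobic stretch only further along, a mean of 1.6 or more over 19 residues as in many multi-pass membrane proteins, lay between. There were 2373 of them, 689 higher and 533 lower (297 and 1118 with total-count scaling, 604 and 650 with mitochondrial genes kept), and their median difference was 0.07. The 7768 genes with neither stretch had 880 higher and 2531 lower and a median of -0.28. The small set of 26 genes whose protein ends with an ER retrieval signal had 24 higher and 0 lower, with a median log2 ratio of -2.58 in mNPC and -0.92 in mCtx. The mitochondrial share and the oligodendrocyte-lineage and astrocyte markers given above also differed between mCtx and mNPC. Their part in the class differences was not tested. In mESC, where the N-terminal median was -0.42, the mitochondrial share was 27.9 to 29.8% in nucleoplasm, above that of mNPC, and 2.06 to 5.9% in chromatin. Leaving out any 1 of the 12 libraries, mNPC nucleoplasm library 1 with its 15.7% of mitochondrial counts among them, gave an N-terminal median of 0.99 to 1.10 relative to all members.

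Levels of the N-terminal class differed mainly in nucleoplasm. The median log2 level of these genes in mCtx minus mNPC was 0.07 in chromatin, -0.74 in nucleoplasm and 0.37 in cytoplasm. From the deposited TPM, 1263 of the genes had a value, with a median difference of 0.37 on the log2(TPM + 1) scale against -0.34 for all members. Gene span changed its size. The median difference was 0.46 for N-terminal genes under 10 kb, 1.02 at 10 to 30 kb, 1.21 at 30 to 100 kb, 0.87 at 100 to 300 kb and -0.09 at 300 kb or more. For genes with neither stretch the same classes had medians of -0.21, -0.25, -0.27, -0.48 and -1.47.

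**Figure D2:**
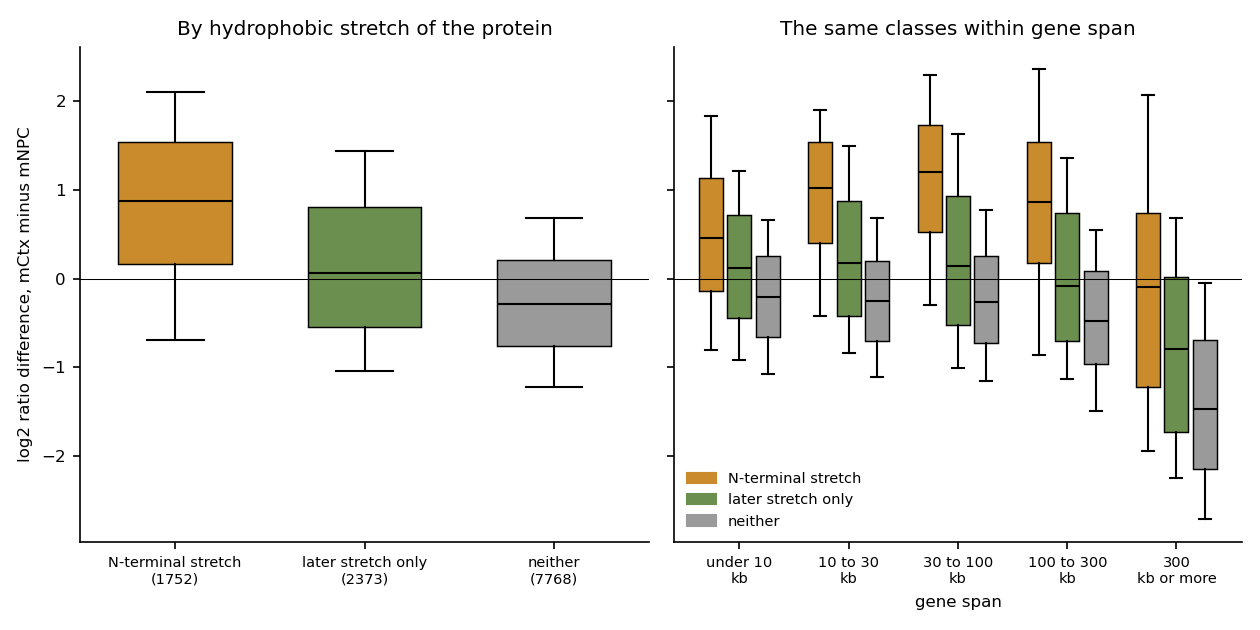
Log2 chromatin-to-nucleoplasm ratio difference, mCtx minus mNPC, by protein class and gene span; boxes give the interquartile range with the median and whiskers the 10th to 90th percentile. The median of the N-terminal class lies above that of the class with neither stretch in all 5 span classes, with medians of 1.21 and -0.27 at 30 to 100 kb.

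Among secreted proteins, Igfbp4 binds and holds insulin-like growth factors. Its level was 0.615, 1.74 and 0.815 CPM in mCtx chromatin and 3.51, 3.16 and 3.38 CPM in mCtx nucleoplasm. In the progenitors the levels were 4.55, 4.99 and 5.23 CPM in chromatin and 157, 179 and 197 CPM in nucleoplasm. The mNPC nucleoplasm libraries stood far above all others. The log2 ratio was -1.62 in mCtx and -5.17 in mNPC, a difference of 3.56 (SE 0.506, adjusted p = 3.67e-06). Its relative Igfbp2 differed by 3.28 (SE 0.248, adjusted p = 2.61e-10), with log2 ratios of -1.26 and -4.54. Sparc kept a strongly nucleoplasmic ratio in both cell types, -3.0 in mCtx and -4.33 in mNPC, and its difference of 1.33 passed the test (adjusted p = 0.00216) but not under total-count scaling, where it was 0.69 (adjusted p = 0.0803).

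The extracellular matrix list had 31 tested members of 43, of which 26 were higher, 0 lower and 5 not called. With total-count scaling 18 were higher and 1 lower, and from log2(TPM + 1) 16 of 24 were higher and 0 lower. The median difference was 1.63, or 1.78 relative to all members. Lamb1 encodes a laminin chain of basement membranes. Its level was 67.3, 68.6 and 59.1 CPM in mCtx chromatin and 91.7, 84.5 and 83.2 CPM in mCtx nucleoplasm. For mNPC the values were 18.7, 23.2 and 21.7 CPM in chromatin and 190, 243 and 238 CPM in nucleoplasm. The mNPC nucleoplasm libraries of Lamb1 were the highest of the 4 groups without overlap, and its ratio was 7.92-fold higher in mCtx (log2 difference 2.99, SE 0.18, adjusted p = 9.98e-12). The collagen IV chain Col4a1 differed by 3.05 (SE 0.305, adjusted p = 1.88e-08) and the fibulins Fbln1 and Fbln2 by 2.98 and 2.99.

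The ER itself was represented by its folding and translocation machinery. Of 42 genes, 37 were higher, 1 lower and 4 not called, with a median difference of 1.14 and median log2 ratios of -1.15 in mCtx and -2.04 in mNPC. With total-count scaling 22 were higher and 2 lower, and from log2(TPM + 1) 11 were higher and 1 lower. Txndc5, a protein disulfide isomerase family member, differed by 2.10 (SE 0.202), the translocation protein Tram1 by 1.97 and the co-chaperone Dnajc3 by 1.71. The abundant chaperones differed less. Calr differed by 1.22 (SE 0.243, adjusted p = 0.000267). Hspa5 was at 58.8, 55.4 and 53.2 CPM in mCtx chromatin against 468, 434 and 486 CPM in nucleoplasm, and at 89.7, 77.9 and 99.2 against 1400, 1340 and 1160 CPM in mNPC. Its difference was 0.82 (SE 0.26, adjusted p = 0.0151), and with total-count scaling it was 0.17 and not called.

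N-glycosylation is carried out on proteins entering the ER. The list had 19 of 27 genes higher and 0 lower (12 and 3 with total-count scaling, 11 and 2 from log2(TPM + 1)), with a median of 1.06. Rpn2 is a subunit of the oligosaccharyltransferase. It was at 91.4, 87.9 and 78.6 CPM in mCtx chromatin and 205, 189 and 215 CPM in mCtx nucleoplasm. The mNPC libraries had 124, 113 and 131 CPM in chromatin and 1380, 1560 and 1240 CPM in nucleoplasm. The chromatin levels of the cell types were near each other and the nucleoplasm levels were not, and the ratio differed by 2.27 (SE 0.179, adjusted p = 4.72e-10). Magt1, another subunit, differed by 2.35 and the glucosidase subunit Prkcsh by 2.06.

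Lysosomal enzymes are made at the ER and had the highest list median, 1.70, or 1.84 relative to all members. Of 35 genes, 32 were higher and 1 lower (22 and 1 with total-count scaling and also from log2(TPM + 1)), and the median log2 ratio was -1.15 in mCtx and -2.91 in mNPC. Arsb, arylsulfatase B, was at 24.8, 26.7 and 24.7 CPM in mCtx chromatin against 14.7, 12.4 and 11.7 CPM in nucleoplasm, and at 8.15, 6.50 and 7.74 CPM in mNPC chromatin against 40.8, 33.4 and 27.2 CPM in nucleoplasm. It lay toward chromatin in every mCtx replicate and toward nucleoplasm in every mNPC replicate, with a difference of 3.15 (SE 0.334, adjusted p = 4.79e-08). The hexosaminidase subunit Hexa differed by 2.59 (SE 0.67, adjusted p = 0.00326), and Naglu and Glb1, which also degrade glycans, by 2.54 and 2.45. Cholesterol synthesis, an ER-bound pathway, had a smaller share, with 9 of 23 genes higher and 1 lower (4 and 4 with total-count scaling) and a median of 0.50. Its sterol reductase Tm7sf2 differed by 2.42 (SE 0.239).

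**Figure D3:**
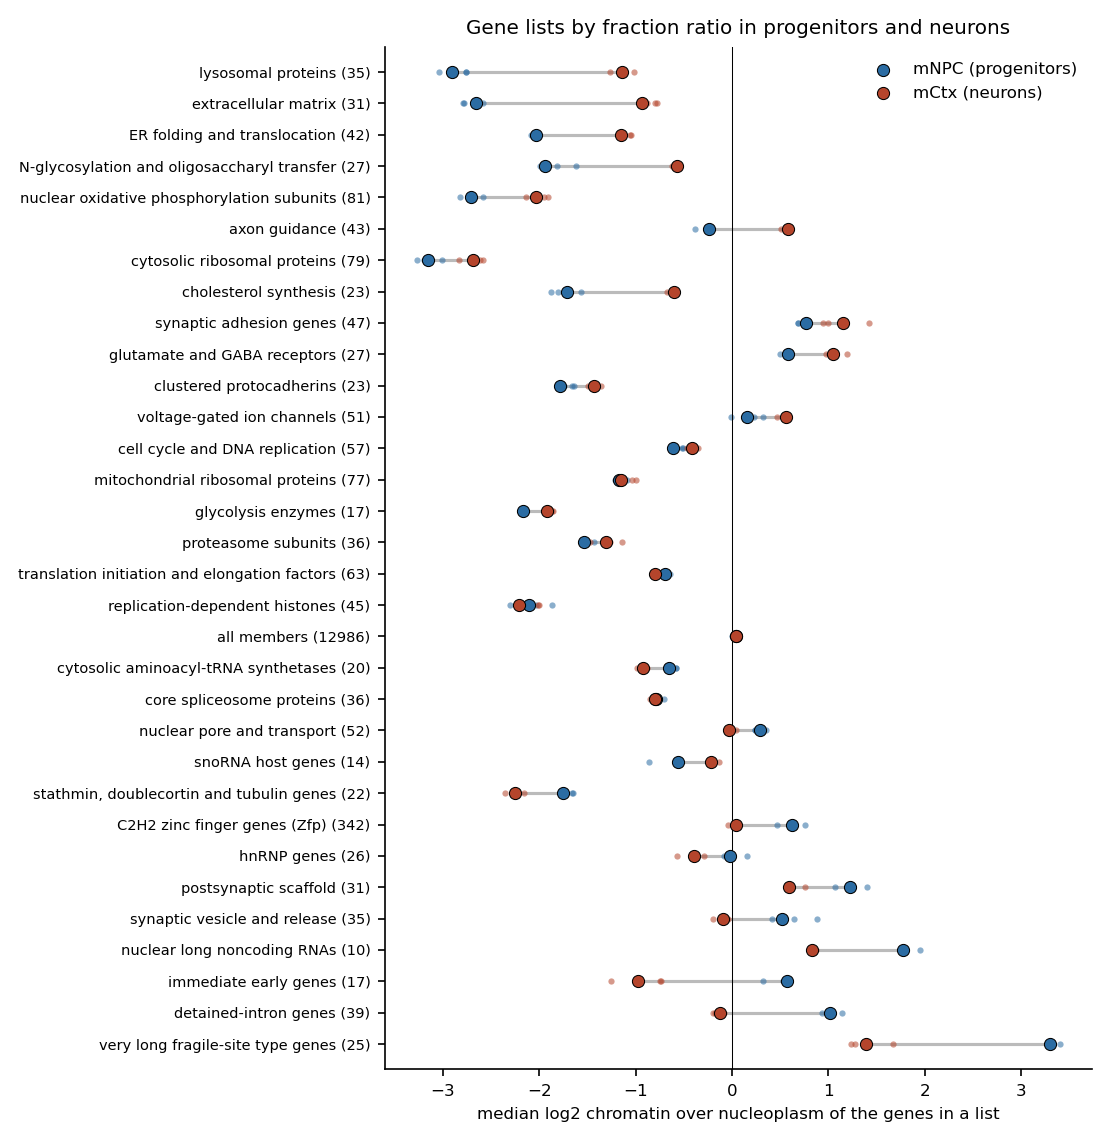
Median log2 chromatin-to-nucleoplasm ratio of each gene list in mNPC and mCtx, with the number of genes in brackets and small points for the 3 replicates. Lysosomal, extracellular matrix, ER and N-glycosylation genes lie far to the nucleoplasm side in mNPC, with the lysosomal median at -2.91 in mNPC and -1.15 in mCtx, while detained-intron genes lie at 1.02 in mNPC and -0.12 in mCtx.

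Messenger RNAs translated on free ribosomes were also examined. The cytosolic ribosomal protein list had 41 of 79 genes higher and 0 lower, but with total-count scaling only 3 were higher and 13 lower. Its median was 0.58, or 0.73 relative to all members. All 79 genes were called toward nucleoplasm in both cell types, and processed copies of these genes make their counts uncertain. Rps20, of the small ribosomal subunit, was at 15.8, 18.5 and 20.8 CPM in mCtx chromatin and 50.1, 47.0 and 54.2 CPM in nucleoplasm, and at 27.9, 32.3 and 28.4 against 253, 241 and 228 CPM in mNPC. It differed by 1.57 (SE 0.233, adjusted p = 6.73e-06). Nuclear-encoded oxidative phosphorylation subunits had 45 of 81 genes higher and 0 lower (16 and 16 with total-count scaling), with a median of 0.70. Ndufa9, a complex I subunit, differed by 1.58 (SE 0.145, adjusted p = 5.78e-09).

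Mitochondrial ribosomal proteins (16 higher and 8 lower of 77, or 2 and 40 with total-count scaling, median 0.08), proteasome subunits (7 and 4 of 36, or 0 and 19, median -0.00), glycolysis enzymes (2 and 2 of 17, or 0 and 7, median 0.04) and translation factors (11 and 10 of 63, or 2 and 42, median -0.08) lay near the median of all members. Cell cycle and DNA replication genes had 3 of 57 higher and 9 lower (1 and 25 with total-count scaling, 11 and 9 with the 12 libraries alone, 16 and 5 with rescaled TPM), with a median of 0.12. The shares of 5.26% and 15.8% were under the 20% and 27.3% of all members. Among them Ccnb2, a mitotic cyclin, differed by 1.77 (SE 0.172). Replication-dependent histone genes, a near-identical family whose counts are uncertain, had 2 of 45 higher and 0 lower, or 1 and 7 with total-count scaling.

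The rule for the largest differences named 10 genes with a higher ratio. Olfm2, a secreted olfactomedin-domain protein, was at 117, 124 and 126 CPM in mCtx chromatin and 88.2, 76.6 and 74.8 CPM in mCtx nucleoplasm. In the progenitors the levels were 10.2, 10.2 and 9.95 CPM in chromatin and 101, 131 and 115 CPM in nucleoplasm. The chromatin levels of the cell types were far apart, and the nucleoplasm levels were nearer to each other. The difference was 4.13 (SE 0.296, adjusted p = 1.04e-10), although the transcript chosen for Olfm2 fell in the class with neither stretch. The membrane protease Ece1, which activates endothelin, differed by 3.93, the secreted carboxypeptidase-like Cpxm1 by 3.51, the pore membrane glycoprotein Nup210 by 3.5, the matrix protein Matn2 by 3.45 and 1500015O10Rik by 3.38.

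Genes that changed side toward chromatin included Pdia5, a disulfide isomerase of the ER. It was at 29.1, 36.5 and 31.5 CPM in mCtx chromatin and 8.28, 10.5 and 8.95 CPM in nucleoplasm. For mNPC the values were 6.70, 5.34 and 7.08 CPM in chromatin and 18.7, 20.7 and 19.5 CPM in nucleoplasm. Every mCtx replicate was higher in chromatin and every mNPC replicate was higher in nucleoplasm, with a difference of 3.44 (SE 0.226, adjusted p = 3.00e-11). Sorcs2, a sorting receptor of neurons spanning 381 kb, was at 260, 277 and 260 CPM in mCtx chromatin and 115, 110 and 101 CPM in nucleoplasm. Progenitor libraries held 57.0, 43.3 and 45 CPM in chromatin and 287, 302 and 277 CPM in nucleoplasm. Its difference was 3.87 (SE 0.373, adjusted p = 1.16e-08). The matrix proteins Adamtsl3 and Ltbp1 differed by 3.40 and 3.32, and Acad10, of the acyl-CoA dehydrogenase family, by 3.13.

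Very long genes were more often lower than higher in mCtx. The 440 members spanning 300 kb or more had 46 higher and 259 lower (58.9%), with a median difference of -1.05, or -0.90 relative to all members. Both cell types held these genes toward chromatin, with median log2 ratios of 1.37 in mCtx and 2.37 in mNPC, and mESC were at 2.47. A long gene scarce in mNPC can enter through chromatin alone, which favours a high mNPC ratio, and the span classes were not recounted without such genes. Genes under 10 kb (465 higher and 718 lower of 3360), at 10 to 30 kb (832 and 1015 of 3954), at 30 to 100 kb (942 and 1029 of 3674) and at 100 to 300 kb (318 and 524 of 1558) had medians between -0.22 and -0.09, and with median-ratio factors the classes of 10 to 30 and 30 to 100 kb had more higher than lower calls (958 and 857, 1049 and 902). The direction relative to all members depended on the measure. From TPM, 284 of the genes of 300 kb or more had a value, with 46 higher and 57 lower and a median of -0.05, which is 0.29 above the median of all members.

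Long genes also took a larger share of the neurons' counted reads, which include introns. Genes of 100 kb or more took 66.6% ± 1.27 (SD, n = 3) of counts in mCtx chromatin and 42.4% ± 1.71 in mCtx nucleoplasm, against 37.9% ± 1.12 and 15.5% ± 0.196 in mNPC. Without the mitochondrial counts in the total the shares were 66.7%, 43.3%, 38.0% and 17.5%.

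**Figure D4:**
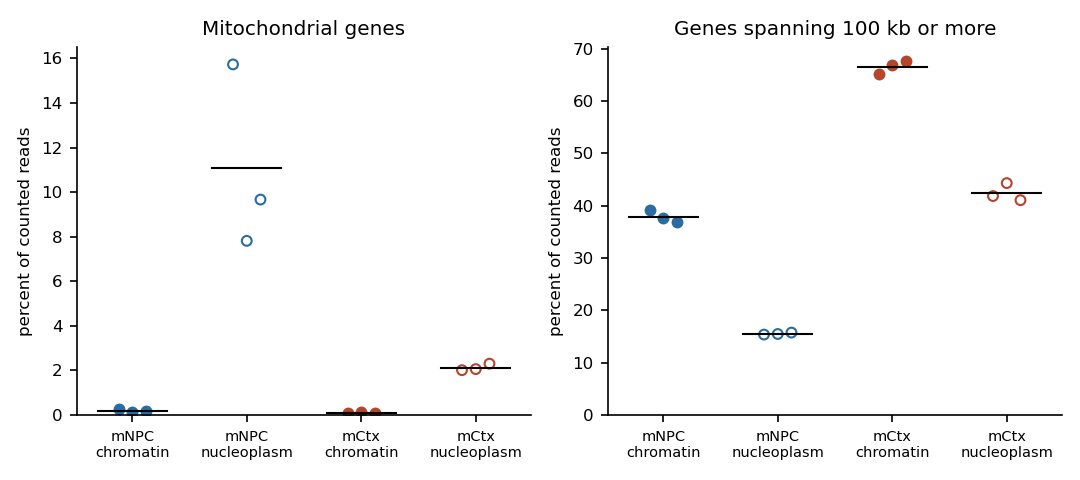
Share of counts per library from mitochondrial genes and from genes spanning 100 kb or more, by group, each point 1 library and each line a mean. The mNPC nucleoplasm libraries hold the highest mitochondrial shares, 7.81 to 15.7%, and the lowest long-gene shares, 15.5% on average.

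Fhit spans 1612 kb and overlies a common fragile site. It was at 78.0, 86.2 and 94.6 CPM in mCtx chromatin and 29.1, 31.8 and 23.3 CPM in mCtx nucleoplasm. The mNPC libraries had 408, 339 and 349 CPM in chromatin and 11.8, 5.75 and 4.10 CPM in nucleoplasm. Chromatin exceeded nucleoplasm in every replicate of both cell types, by a log2 ratio of 1.62 in mCtx and 5.69 in mNPC, and the difference was -4.07 (SE 0.361, adjusted p = 3.12e-09). The list of very long genes of the fragile-site type had 22 of 25 genes lower and 0 higher, with median log2 ratios of 1.39 in mCtx and 3.30 in mNPC. Genes scarce in mNPC can enter through chromatin alone, which favours a high mNPC ratio, and this list was not recounted without them. From TPM this list's median stood 0.46 above that of all members, the opposite direction.

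Sgcz, which encodes a sarcoglycan, differed by -3.84 (SE 0.403) and the mitochondrial peptidase gene Immp2l by -3.47 (SE 0.266). From TPM without a filter the direction turned, with Sgcz at 0.68 (adjusted p = 7.08e-06 by limma) and Immp2l at 0.50 (adjusted p = 0.428). Kcnip4, a potassium channel partner, was at 4880, 5960 and 6430 CPM in mCtx chromatin against 2080, 2550 and 1930 CPM in nucleoplasm, and at 0.958 to 1.58 CPM in mNPC chromatin. In mNPC nucleoplasm it was at 0.0777 to 0.236 CPM, under the floor of 3 counts per library, so the size of its difference rests on few counts. The fitted value of -1.68 (adjusted p = 0.0373) was no longer called when any of 5 of the 12 libraries was left out, namely mCtx chromatin 1 (-1.58), mCtx nucleoplasm 2 (-1.56), mNPC chromatin 1 (-1.47), mNPC nucleoplasm 1 (-1.53) or mNPC nucleoplasm 2 (-1.39).

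For 3 of the 10 genes with the most negative ratio difference, mNPC nucleoplasm held no count. Zfp804a, a zinc finger gene, was at 356, 439 and 519 CPM in mCtx chromatin, 189, 232 and 194 CPM in mCtx nucleoplasm and 3.6, 2.15 and 1.77 CPM in mNPC chromatin. With a floor of 3 counts per library in mNPC nucleoplasm, which covers counting error only, its log2 ratio was lower in mCtx by at least 2.21. The same bound was 0.97 for Rtl4 and 0.93 for Gm10855. Gm10855, Gm14093 (-4.90), Gm16076 (-4.04) and the orphan receptor gene Gpr21 (-3.65) lie wholly inside Celf2, Slc24a3, Erbb4 and Rabgap1, so their counts cannot be told apart from intron reads of those genes if strand was not used.

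Genes known for introns that are retained in the nucleus moved together. Of the 39 detained-intron genes, 38 were lower in mCtx, 0 higher and 1 not called, against 27.3% lower among all members. The median log2 ratio was 1.02 in mNPC, -0.12 in mCtx and -0.16 in mESC. The median difference was -1.18 from counts and -1.56 from TPM. In level, the medians in mCtx minus mNPC were -0.93 in chromatin and 0.25 in nucleoplasm.

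Pnisr encodes a splicing-related nuclear protein. It was at 180, 200 and 204 CPM in mCtx chromatin and 162, 164 and 157 CPM in mCtx nucleoplasm. In the progenitors the levels were 574, 607 and 602 CPM in chromatin and 125, 114 and 154 CPM in nucleoplasm. The mNPC chromatin libraries stood above all others, and the ratio was 3.74-fold lower in mCtx (log2 difference -1.90, SE 0.166, adjusted p = 2.33e-09). The kinase Clk1, which phosphorylates splicing factors, differed by -1.80 (SE 0.202), the helicases Ddx5 and Eif4a2 by -1.86 and -1.89, and the O-GlcNAc transferase Ogt, whose detained intron is known to respond to its own product, by -1.23 (SE 0.174).

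Other RNA-binding protein genes were mixed. The hnRNP list had 16 of 26 lower and 3 higher, with Hnrnph1 at -1.83. Core spliceosome genes had 11 of 36 lower (30.6%) and 6 higher (16.7%), near the 27.3% and 20% of all members (7 and 7 with median-ratio factors, 23 and 2 with total-count scaling), with Sf3b1, a U2 particle subunit, at -1.75. Nuclear pore and transport genes had 19 of 52 lower (36.5%) and 6 higher (11.5%), with the basket protein Tpr at -1.53 and the importin-related Ranbp6 at -2.15. The median of the nuclear pore list relative to all members was -0.14, and -0.06 without mCtx chromatin library 1 or -0.08 without mNPC nucleoplasm library 1. Cytosolic tRNA synthetase genes had 6 of 20 lower (30%, near the 27.3% of all members) and 2 higher (10%), or 16 and 1 with total-count scaling, with Tars at -1.27. Their median relative to all members was -0.02 from counts and -0.44 from TPM.

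The polypyrimidine tract proteins replace one another when progenitors become neurons, and both were measured here. Ptbp2, the neuronal form, was at 363, 458 and 513 CPM in mCtx chromatin against 358, 395 and 370 CPM in nucleoplasm, and at 445, 495 and 452 against 98.1, 85.6 and 89.0 CPM in mNPC. Its chromatin levels overlapped between cell types and its nucleoplasm levels did not, with a difference of -2.10 (SE 0.203, adjusted p = 1.21e-08). Ptbp1, the progenitor form, differed by 0.68 (adjusted p = 0.0250), but not with total-count scaling (0.04) and not without mCtx chromatin library 1 (0.58), mCtx nucleoplasm 2 (0.63) or 3 (0.66), or mNPC chromatin 1 (0.60) or 2 (0.64) or nucleoplasm 2 (0.65).

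C2H2 zinc finger genes had 169 of 342 members lower (49.4%) and 6 higher. Their median difference was -0.66, or -0.51 relative to all members, with median log2 ratios of 0.05 in mCtx and 0.62 in mNPC. From TPM, 280 of the genes had a value, with a median difference of -0.59 against -0.34 for all members. Zfp40 was at 78.3, 90.7 and 94.1 CPM in mCtx chromatin against 77.5, 77.7 and 73.4 CPM in nucleoplasm, and at 152, 159 and 126 against 32.3, 27.9 and 32.5 CPM in mNPC. Its difference was -2.03 (SE 0.214, adjusted p = 4.10e-08). Zfp385b was at 299, 336 and 369 CPM in mCtx chromatin and 105, 121 and 102 CPM in nucleoplasm, and at 3.67, 3.02 and 3.39 CPM in mNPC chromatin. In mNPC nucleoplasm it reached at most 0.155 CPM, under the floor of 3 counts per library, so no size is given for its difference.

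Among noncoding RNAs, the share called lower was near or above the 27.3% of all members. Of 99 lincRNA genes 36 (36.4%) were lower and 2 higher (median -0.81), of 164 antisense genes 40 (24.4%) were lower and 6 higher (median -0.61), and of 133 snoRNA genes 35 (26.3%) were lower and 8 higher (median -0.73). Because only RNA longer than 200 nt was sequenced, counts over snoRNA genes may come from longer host transcripts and are uncertain. Of 31 sense-intronic genes, which lie in introns of host genes, 22 (71%) were lower and 0 higher. These medians were on the other side of the median of all members from TPM for lincRNA (0.098 relative to it), antisense (0.27) and sense-intronic genes (0.53), and the strand setting of the counting is not given in the sources used here. Noncoding genes scarce in mNPC can enter through chromatin alone, which favours a high mNPC ratio, and these types were not recounted without them.

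Of the list of nuclear long noncoding RNAs, 10 of 25 were members, 7 lower, 1 higher and 2 not called, with a median relative to all members of -0.77 from counts and 0.002 from TPM. Malat1, which is held in nuclear speckles, was at 8040, 9660 and 10200 CPM in mCtx chromatin and 9160, 9440 and 9920 CPM in mCtx nucleoplasm. For mNPC the values were 23100, 22900 and 22200 CPM in chromatin and 8660, 6590 and 8460 CPM in nucleoplasm. The mCtx fractions overlapped and those of mNPC did not, and the difference was -1.55 (SE 0.366, adjusted p = 0.00140). Ftx, which lies beside Xist and promotes its expression, differed by -1.59 (SE 0.241) and Tug1 by -1.38 (SE 0.26).

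Neat1, the scaffold of paraspeckles, was at 24.4, 24.9 and 21.8 CPM in mCtx chromatin and 13.0, 12.4 and 12.1 CPM in nucleoplasm, and at 23.9, 28.2 and 27.6 against 9.18, 9.95 and 5.83 CPM in mNPC, with a difference of -0.75 that did not pass the test (SE 0.498, adjusted p = 0.267). Xist, the RNA that coats the inactive X chromosome, was at 356, 1150 and 3310 CPM in mCtx chromatin and 24.2, 116 and 201 CPM in nucleoplasm, and at 2280, 2000 and 1820 against 142, 125 and 114 CPM in mNPC. Its level ranged widely over the mCtx libraries while its log2 ratio stayed at 3.30 to 4.04 in mCtx and 4.0 in mNPC, and the difference was -0.19 (SE 0.791, adjusted p = 0.937). Without mCtx chromatin library 3 it was -1.28 and without mCtx nucleoplasm library 3 it was 0.51, neither of which passed the test. Both fits part same-numbered libraries, and the level of Xist rose with the library number in both mCtx fractions.

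Lists of neuronal genes were examined next. Neuronal genes scarce in mNPC can enter through 1 mNPC fraction alone, which favours an extreme mNPC ratio, and these lists were not recounted without them. Axon guidance genes had 19 of 43 higher and 6 lower (10 and 11 with total-count scaling), with a median of 0.70, or 0.84 relative to all members. Synaptic vesicle and release genes had 21 of 35 lower and 3 higher, with a median of -0.83. Postsynaptic scaffold genes had 17 of 31 lower and 2 higher (median -0.79, or -0.64 relative to all members, against -0.18 from TPM with 7 of 23 lower and 1 higher), and stathmin, doublecortin and tubulin genes 12 of 22 lower and 0 higher (median -0.53, or -0.39 relative to all members against -0.87 from TPM).

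Among the membrane proteins, synaptic adhesion genes had 17 of 47 higher (36.2%) and 13 lower (27.7%). Voltage-gated channels had 16 of 51 higher (31.4%) and 11 lower (21.6%), and glutamate and GABA receptors 8 of 27 higher (29.6%) and 6 lower (22.2%). Of all members 20% were higher and 27.3% lower, so the shares called lower were near or under that of all members. With total-count scaling the counts were 10 and 20, 8 and 20, and 5 and 12, in that order. The median of the receptor list relative to all members was 0.48, and 0.30 without mNPC nucleoplasm library 2. The cadherin Cdh4 was at 639, 736 and 680 CPM in mCtx chromatin against 221, 222 and 201 CPM in nucleoplasm, and at 283, 187 and 229 against 453, 513 and 502 CPM in mNPC. It lay toward chromatin in every mCtx replicate and toward nucleoplasm in every mNPC replicate, with a difference of 2.75 (SE 0.27, adjusted p = 1.53e-08). Cdh13, a cadherin anchored by lipid, differed by 2.27, the receptor phosphatase Ptprf by 2.29, the AMPA receptor subunit Gria1 by 2.42, the GABA-B receptor subunit Gabbr2 by 1.85 and the channel partner Kcnip3 by 2.33. Gabbr1 was at -0.13 (SE 0.217, adjusted p = 0.719), with log2 ratios of -1.6 in mCtx and -1.47 in mNPC. Of the guidance genes, Slit1 differed by 2.88, the netrin receptor Unc5b by 2.76 and Ntn1 by 2.45.

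On the vesicle side, Rab3a is a small GTPase of synaptic vesicles. It was at 19.9, 14.4 and 16 CPM in mCtx chromatin and 108, 94.7 and 100.0 CPM in mCtx nucleoplasm. Progenitor libraries held 7.90, 11.3 and 9.58 CPM in chromatin and 5.6, 7.23 and 7.17 CPM in nucleoplasm. Only the mCtx nucleoplasm libraries were high, and the ratio was 8.64-fold lower in mCtx (log2 difference -3.11, SE 0.25, adjusted p = 6.66e-10). Napb, which acts in vesicle fusion, differed by -2.89 (SE 0.194), the microtubule protein Map2 by -2.23, the oligodendrocyte and neuron tubulin Tubb4a by -2.08 and Tubb3 by -1.14. The scaffold gene Dlg2, a very long gene at 7150 to 9090 CPM in mCtx chromatin and only 7.89 to 12.6 CPM in mNPC chromatin, differed by -3.10 (SE 0.516), but from TPM without a filter by 0.41 (adjusted p = 0.00929 by limma). Dlg4, its postsynaptic relative, was at -0.62, which did not pass the test (SE 0.306, adjusted p = 0.123). Actb, abundant in both cell types, differed by -0.87 (SE 0.259, adjusted p = 0.00974).

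Genes that changed side toward nucleoplasm in the neurons were led by Purg, a single-stranded nucleic acid binding protein. It was at 180, 205 and 218 CPM in mCtx chromatin and 555, 551 and 583 CPM in mCtx nucleoplasm. The mNPC libraries had 118, 116 and 106 CPM in chromatin and 41.6, 27.8 and 35.8 CPM in nucleoplasm. The difference was -3.18 (SE 0.2, adjusted p = 1.52e-11). Mllt11 differed by -3.0, the microtubule-associated Map9 by -2.77, Rell2 by -2.63 and the heat shock chaperone Hsph1 by -2.49 (SE 0.269, adjusted p = 6.20e-08).

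Immediate early genes had 5 of 17 lower (29.4%, against 27.3% of all members) and 0 higher, and 13 lower with total-count scaling. Fos, a transcription factor induced by stimulation, was at 1.23, 1.04 and 1.53 CPM in mCtx chromatin against 3.36, 3.93 and 5.72 CPM in nucleoplasm, and at 38.7, 33.7 and 82.0 against 16, 20.2 and 47.9 CPM in mNPC. Its difference was -2.65 (SE 0.857, adjusted p = 0.0166), and -2.15 without mNPC chromatin library 3, where it was no longer called (adjusted p = 0.0529). The list's median relative to all members was -0.79, and -1.36 without mNPC nucleoplasm library 3. Clustered protocadherins, which share exons so that their counts are uncertain, had 5 of 23 higher (21.7%) and 2 lower (8.7%), or 3 and 6 with total-count scaling. The snoRNA host genes had 3 of 14 lower (21.4%) and 1 higher (7.14%), or 3 and 3 with DESeq2. Of all members 20% were higher and 27.3% lower.

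**Figure D5:**
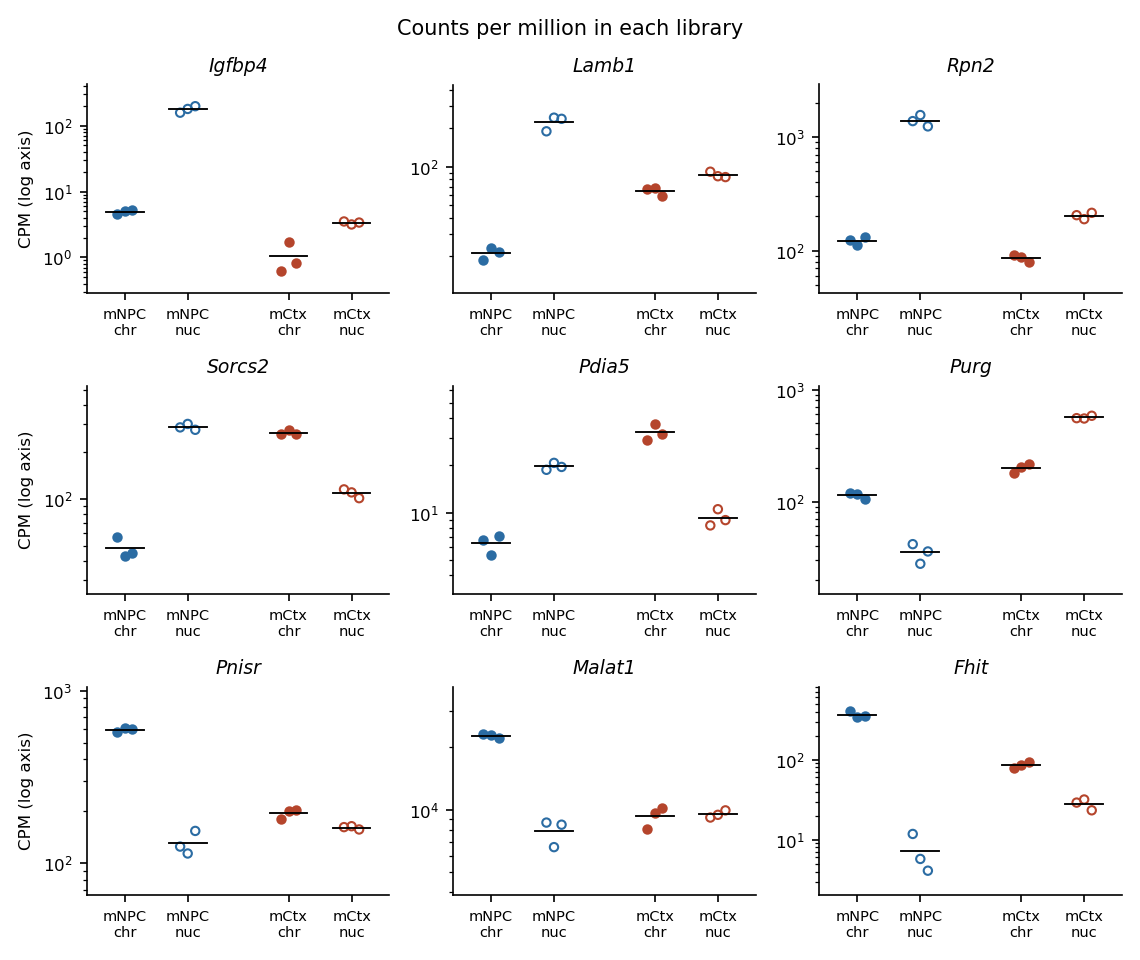
CPM of 9 genes in each library of mCtx and mNPC chromatin and nucleoplasm, log axis, each point 1 library and the line the mean of 3. Igfbp4, Lamb1 and Rpn2 are highest in mNPC nucleoplasm, Sorcs2 and Pdia5 change side between the cell types, and Fhit is highest in mNPC chromatin at 339 to 408 CPM.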

How the data were processed

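Per the labels' protocols, RNA longer than 200 nt from 3 fractions of 3 mouse cell types was depleted of ribosomal RNA and sequenced as stranded paired reads, 3 libraries in each of 9 groups. The submitters' processing notes name STAR, featureCounts, kallisto and the mm10 build, with no versions and no roles; the strand, overlap and multi-mapping settings of the counting are not given in the sources used here. The authors deposited a table of raw read counts per gene, in which the stated length is the gene span, introns included, for each of 37332 genes. Its chromatin columns are entered here under expected count because the unit check took their abbreviation for chromosome, although the deposited values are whole numbers. A second table deposited by the authors gives TPM for 53379 genes and served as an alternative measure.

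From the counts, 37 mitochondrial genes were set apart, edgeR 4.0.16 (R 4.3.3) filtered low counts with its default rule, scaled by trimmed means and fitted all 27 libraries with 1 coefficient per group, which left 18 residual degrees of freedom. The ratio comparison was the contrast of mCtx chromatin minus nucleoplasm and mNPC chromatin minus nucleoplasm. Adjusted p-values in the text come from edgeR's quasi-likelihood test with Benjamini-Hochberg adjustment over all 18252 genes fitted, except those said to come from TPM, which come from limma 3.58.1. Ratios of single replicates used same-numbered libraries and a prior of 0.1 CPM, and a call needed an adjusted p under 0.05. Where a group had no counts, the bound was computed with 3 counts in each library, which covers counting error only. The procedure was tested on simulated data.

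Genes were named by fixed rules. These took the 10 largest called differences in each direction at a mean of 10 CPM or more with ratios of the replicates not overlapping, the 5 clearest changes of side in each direction, up to 4 members of each list with the largest differences in the direction of its median, and a set of fixed genes. Calr, Igfbp2, Sparc and Tubb3 fall outside these rules and were added as examples after their values were seen. Some genes that met these rules are not reported here. Fixed genes that did not meet the level rule, Meg3 and Miat, are not reported. The members, the 31 gene lists and the protein classes were chosen with earlier results of these data known. Lists are described by counts and medians without a test. Gene types, transcripts and coding sequences came from GENCODE vM21 on GRCm38, to which 35533 of the 37332 gene IDs (95.2%) matched. The protein classes used mean Kyte-Doolittle hydropathy of the translated coding sequence, and 11893 members were classed.

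The fit was repeated with total counts, with median-ratio size factors and with DESeq2 1.42.0. Further alternatives were mitochondrial genes kept, no low-count filter, the 12 libraries alone, a log2 change of at least 1 (glmTreat), limma on log2(TPM + 1), also with a pseudocount of 0.1, without a filter and rescaled by the median ratio, other level thresholds, a replicate block and leaving out each library. Chosen after seeing the data were hydropathy limits of 1.8 and 2.6 and leaving out 2225 members that another gene covers at 10% or more. Genes whose counts could include reads of overlapping, antisense or near-identical genes are uncertain.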

Additional observations from a re-analysis of the deposited data

Results flagged for a closer look

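The test of the difference between the cell types passed for 2603 genes with a higher chromatin-to-nucleoplasm ratio in mCtx and 3545 with a lower one, which is why the comparison as a whole is listed here. Among the genes that lay on opposite sides in the cell types, each with a called ratio difference, Sorcs2 (3.87), Pdia5 (3.44), Adamtsl3 (3.40), Ltbp1 (3.32) and Acad10 (3.13) were toward chromatin in mCtx and toward nucleoplasm in mNPC, as log2 ratio differences. Purg (-3.18), Mllt11 (-3.0), Map9 (-2.77), Rell2 (-2.63) and Hsph1 (-2.49) were toward nucleoplasm in mCtx and toward chromatin in mNPC. Another gene of the table covers part of Rell2, whose counts are uncertain for that reason.

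Mitochondrial genes stood outside the comparison. With them kept in the fit, 29 were tested, 12 had a higher ratio in mCtx and 0 a lower one, with a median log2 difference of 1.81. Their median log2 ratio was -4.08 in mCtx and -5.53 in mNPC, toward nucleoplasm in both. Most of the 29 are tRNA genes, whose counts are uncertain because only RNA longer than 200 nt was sequenced. Both median ratios are the values of the tRNA gene mt-Tf. The median difference is that of the tRNA gene mt-Tv, which was not called. For mt-Co2, mt-Atp6 and mt-Co3, chromatin of both cell types held no count, so their fitted differences give no size. The ribosomal RNA mt-Rnr2 differed by 2.49 (adjusted p = 0.00132). The mNPC nucleoplasm libraries held unequal mitochondrial shares of 15.7%, 7.81% and 9.67%. Groups of 3 libraries are too small for a check for a single outlying library, and none was made.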

How the results depend on the processing

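The counts of higher and lower ratios stayed within 1.5 times 2603 and 3545 with DESeq2 (3065 and 3148), median-ratio factors (2967 and 3043), mitochondrial genes kept (2266 and 4207), no low-count filter (2512 and 3185), the 12 libraries alone (3561 and 4251), other level thresholds and members not covered by another gene (2212 and 2938 of 10761). Leaving out a library gave 2319 to 2742 higher and 2985 to 3326 lower, 4107 to 4551 toward chromatin and 4251 to 4886 toward nucleoplasm in mCtx, and 4513 to 5202 and 4930 to 5437 in mNPC. A log2 change of at least 1 left 650 higher and 523 lower, 878 and 1836 in mCtx and 2605 and 2748 in mNPC, a stricter test by construction. Total counts gave 1114 and 7166 (8.58% and 55.2% of members) and 2701 toward chromatin in mCtx. TPM, which left fewer genes tested, gave 916 higher, 2980 toward nucleoplasm in mCtx and 2512 in mNPC; with a pseudocount of 0.1 it gave 814, 2844 and 2551, without a filter 1385 higher and 2528 toward nucleoplasm in mNPC, and rescaled 1919 lower and 3383 toward chromatin in mNPC.

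Medians relative to all members turned direction from TPM for genes of 300 kb or more (0.29, and 0.37 without a filter), the fragile-site list (0.46, 0.37), lincRNA (0.098, 0.27), antisense (0.27, 0.29) and sense-intronic genes (0.53, 0.71), and without a filter for genes of 10 to 30 kb (-0.047); the cause was not tested. Gene values turned without a TPM filter for Rtl4 (0.95), Gm10855 (1.94), Sgcz (0.68), Kcnip4 (0.50), Dlg2 (0.41) and Zfp385b (1.46), and Immp2l was 0.50 with and without the filter, 0.84 with a pseudocount of 0.1 and 0.67 rescaled. The N-terminal class kept its direction with hydropathy limits of 1.8 (0.82) and 2.6 (1.17 relative to all members).

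The replicate block gave 3150 higher and 4335 lower genes. It called Dlg4 (-0.62, adjusted p = 0.00156) and Neat1 (-0.76, adjusted p = 0.00631) and changed no other call among the genes named. It raised the immediate early genes called lower from 5 to 11. Deviations of same-numbered chromatin and nucleoplasm libraries correlated at 0.159, 0.0302 and 0.139 in mNPC and 0.0821, 0.0465 and 0.0419 in mCtx. All libraries but mNPC nucleoplasm library 2 correlated best with their own number. The labels do not say that equal numbers share a culture, and the main test did not pair them. These correlations, weak but all positive, do not settle whether the numbers are pairs, so the calls of the block stand beside those of the main test. Genes at few counts in mNPC nucleoplasm, such as Zfp804a, are limited by depth to bounds.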

Other observations

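The deposited mESC libraries give the same lists another point of reference, described here without a test. The level rule did not require a level in mESC, so lists can hold genes that are scarce there. The median log2 ratio of lysosomal genes was -1.79 in mESC, between -2.91 in mNPC and -1.15 in mCtx, and that of N-glycosylation genes was -1.42, between -1.94 and -0.57. ER folding and translocation genes lay at -1.92 in mESC, near the mNPC value of -2.04. Extracellular matrix genes lay at -0.89 in mESC, against -0.93 in mCtx, but the medians of the mESC replicates were spread, at -1.47, -1.04 and -0.45. Genes of the fragile-site type lay at 2.54 in mESC, between 3.30 and 1.39. Synaptic vesicle genes lay at 1.41 in mESC, above 0.52 in mNPC and -0.09 in mCtx, and detained-intron genes at -0.16 in mESC, near mCtx.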
